A study of Mus musculus with 9 samples.

Results

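Mediator genes were examined in tumours that B16-F10 cells, a mouse melanoma line, formed under the skin of C57BL/6 mice. The members were every gene symbol in the count files that begins with Med and a number, together with Cdk8, Cdk19 and Ccnc. The files held 34 such genes among 54532 entries, and 32 of them were among the 14193 entries with enough counts to test. The members were selected on a measured value, the higher Med13 count with hairpin 2 against control. The hairpin 2 values below are therefore a description, and counts of members called there are not read as a result. Med9os, an antisense RNA gene beside Med9, met the naming rule but encodes no subunit.

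The tumour cells of all groups carried a short hairpin RNA (shRNA). The 3 groups were a control hairpin, hairpin 1 against Fbxo38 and hairpin 2 against Fbxo38, with 3 libraries in each. All tumours were taken on day 16 and no treatment is labelled. Groups were read from the titles. In the genotype labels the hairpin samples count up from FBXO38 to FBXO43. The labels do not say whether the lines were clones or pools, or whether replicates came from separate mice, so each p-value reflects only how far these libraries scatter, a scatter beyond counting noise whose source the labels do not give.

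Mediator is a large coactivator that passes signals from DNA-bound transcription factors to RNA polymerase II. Its core consists of head, middle and tail parts held together by the backbone subunit Med14. A separate kinase module of Med12, Med13, cyclin C (Ccnc) and the kinase Cdk8 binds the core reversibly, with Med13 as the link. Vertebrates have a second gene for 3 of these subunits, Med12l, Med13l and Cdk19, each taking the place of its paralog. In human cells FBXW7, an F-box protein as Fbxo38 is, is known to direct the breakdown of MED13 protein, which RNA counts do not measure.

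Across the whole series, libraries held 15322163 to 17342554 counts. In control, Fbxo38 stood at 21.7, 31.3 and 30.8 CPM (counts scaled to a common library size). It stood at 35.1, 21.0 and 22.0 CPM labelled hairpin 1, and at 21.0, 11.4 and 11.9 CPM with hairpin 2. Replicate 1 of hairpin 2 thus lay close to the lowest control library. Against control, the log2 fold change was -0.92 (SE 0.29, edgeR adjusted p = 0.254) with hairpin 2. In the libraries labelled hairpin 1 it was -0.10 (SE 0.28). A lower Fbxo38 was therefore not detectable in the libraries labelled hairpin 1, which are called by their label throughout. The 7 melanocyte markers, among them Pmel and Tyrp1, summed to 20473 to 26930 CPM, so melanoma RNA was present in every library. On the first principal component, which held 35.8% of the variance, the ends were replicate 1 labelled hairpin 1 (60.6) and replicate 2 of hairpin 2 (-54.8). Values of named members without both are given where they move by more than the SE. Host cell markers varied widely. The 7 fibroblast markers summed to 167 to 406 CPM in control, 244 to 3333 labelled hairpin 1 and 277 to 1421 with hairpin 2. The 12 leukocyte markers summed to 77.8 to 221, 87.8 to 294 and 37.2 to 327 CPM in the same order, and the 5 endothelial markers to 108 to 119, 125 to 198 and 118 to 229 CPM. The 5 pericyte and smooth muscle markers summed to 81.2 to 157, 104 to 241 and 120 to 242 CPM. The 5 erythroid markers reached 21462 CPM in replicate 2 of hairpin 2 and at most 4967 CPM elsewhere. Skeletal muscle, adipocyte and keratinocyte markers summed to at most 15.6, 33.2 and 0.244 CPM, and 2 of the 3 keratinocyte markers were at 0 in every library. Melanoma and host cells all express Mediator, and in bulk tissue fewer cells of a type cannot be told apart from less RNA per cell.

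The sequences of 3 members are shown because these members stood higher in every hairpin 2 library than in all other libraries. Each comes from the 250 bases before a RefSeq gene start (GRCm38.p6), cut to the bases that also lie before the GENCODE M21 gene, and is written 5′ to 3′ on the gene's strand. That left 244 bases for Med13, 210 for Med13l and 150 for Med14. The RefSeq window of Med1, which also stood higher, lies wholly inside the GENCODE gene and is not shown. Capitals mark matches on either strand to the TATA box letters TATAAA, to the box CCAAT, to the GC box letters GGGCGG, to the ETS core written CCGGAA, to the E-box letters CACGTG or to the cyclic AMP response element (CRE) letters TGACGTCA.
Med13 chr11:86357603-86357846 (minus strand): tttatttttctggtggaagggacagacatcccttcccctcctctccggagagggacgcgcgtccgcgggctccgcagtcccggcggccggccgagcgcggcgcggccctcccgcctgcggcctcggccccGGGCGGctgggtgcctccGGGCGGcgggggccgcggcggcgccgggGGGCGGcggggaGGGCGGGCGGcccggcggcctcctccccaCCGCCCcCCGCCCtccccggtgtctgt
Med13l chr5:118560469-118560678 (plus strand): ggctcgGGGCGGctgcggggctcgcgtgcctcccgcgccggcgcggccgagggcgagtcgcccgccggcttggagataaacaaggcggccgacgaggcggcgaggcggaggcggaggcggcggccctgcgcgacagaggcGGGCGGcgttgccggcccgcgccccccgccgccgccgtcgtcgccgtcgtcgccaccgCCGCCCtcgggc
Med14 chrX:12762074-12762223 (minus strand): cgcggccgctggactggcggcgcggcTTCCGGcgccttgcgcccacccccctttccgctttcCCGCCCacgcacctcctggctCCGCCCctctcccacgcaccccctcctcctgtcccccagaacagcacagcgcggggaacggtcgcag

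All 3 printed sequences held GC boxes, the site of Sp family factors, and none held a TATA box. Med13 held 7 GC boxes (overlapping matches counted), Med13l 3 and Med14 2. Their GC content was 81.1% for Med13, 83.3% for Med13l and 75.3% for Med14. Over whole RefSeq windows of 250 bases, the median was 56.0% for the 33 windows of the 29 members with an entry, and 52.4% for all 32851 windows. Of the 33 member windows, 21 reach into the GENCODE gene and 7 lie wholly inside it, so a window need not be the promoter in use. GC boxes stood in 21 of the 33 member windows (63.6%) against 32.7% of all windows, and ETS letters in 10 (30.3%) against 12.0%. CCAAT stood in 36.4% against 33.8%, the TATA box in 9.1% against 12.4%, the E-box in 6.1% against 6.0% and the CRE in 3.0% against 1.5%. These are matches of letters, not shown binding sites, and no window for Cdk19, Med8, Med23, Med24 or Med30 was in the table.

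The first question was how much of each subunit's RNA these tumours held. Levels between genes are compared per length, as mean CPM over the 9 libraries per kilobase of the longest GENCODE M21 transcript. Subunits of the core led, with Med25, a tail subunit bound by activators, at 34.0 CPM per kb. Med30 of the upper tail stood at 31.9, Med9 of the middle at 31.3, Med22 of the head at 27.4 and Med16 of the tail at 26.6 CPM per kb. The kinase module genes stood lower than these. Cdk8 stood at 10.4 CPM per kb, Med12 at 8.76, Cdk19 at 8.40, Med13 at 7.86, Ccnc at 6.68 and Med13l at 3.30. Med12l was lowest of the 32 at 0.254 CPM per kb, and its 19 to 85 counts per library limit its precision. The backbone Med14 stood at 7.38 CPM per kb, and Med18, of the head, at 2.43 CPM per kb. A longest transcript need not be the one that is made, which limits this order.

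Med10, a middle subunit, was listed at 0 in all 9 libraries. Of its 4491 exonic bases on GRCm38 chromosome 13 (69802395 to 69816104, plus strand), 4168 overlap exons of Gm26819, a lincRNA gene on the opposite strand, which held 0 to 9 counts per library. How the authors' counting treated such overlaps is not given in the sources used here, so the listed 0 is not read as absence of the RNA. Med9os held 0 to 7 counts per library and was not tested. Exons of 18 of the 34 members overlap another annotated gene, 4 of them on the same strand, and reads there cannot be assigned with certainty. Among the tested members, Med12l shares the most, 2205 of 12763 exonic bases, and Med20 shares 2082 of 7324, part of it with Gm20517 on the same strand. Med13 (chromosome 11, 86267033 to 86357602, minus strand) shares 800 of 10840 exonic bases with the antisense gene Brip1os.

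The comparison of the libraries labelled hairpin 1 with control did not enter the choice of the genes, though its control libraries did. No Mediator gene passed the threshold there, an adjusted p under 0.05 in edgeR's quasi-likelihood test over all 14193 entries (0 of 32 members, against 0% of all entries). At an unadjusted p under 0.05, 0 members were higher, against 1.85% of all entries, and 1 was lower, against 1.32%, and DESeq2 called 0 members. Log2 fold changes were above 0 for 15 members (52.6% of all entries) and below 0 for 17, with a median of -0.02 against 0.01 over all entries. With each library's trend over transcript length and GC content removed, 7 were above 0, against 6006 of all 14193 entries. The median in that fit was -0.07, against -0.03 over all entries. The 95% interval of the log2 fold change lay within ±0.5 for 25 of the 32 members and within ±1 for 31. The exception beyond ±1 was Med12l, at -0.47 with an interval of -1.54 to 0.60.

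Med6, a head subunit, was the member lower at an unadjusted p. It stood at 19.4, 21.5 and 21.9 CPM in control, 17.4, 16.5 and 14.1 labelled hairpin 1, and 19.8, 18.2 and 20.5 with hairpin 2. All 3 libraries labelled hairpin 1 lay below all 3 controls. The log2 fold change was -0.39 (SE 0.14), and edgeR's quasi-likelihood test gave an adjusted p of 1 (0.0165 without adjustment). An exact permutation test (two-sided) gave 0.1, which is its floor for groups of 3 libraries. Groups that did not overlap made up 1 of 32 members on the lower side, against 4.30% of all entries, and 0 on the higher side, against 4.09%.

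The remaining members named for size in this comparison moved within their spread. Med22, a head subunit, stood at 116, 95.8 and 95.2 CPM in control, 69.7, 94.5 and 107 labelled hairpin 1, and 85.3, 97.8 and 102 with hairpin 2. The groups overlapped and the log2 fold change labelled hairpin 1 was -0.18 (SE 0.16), and -0.04 without replicate 1 labelled hairpin 1. Med23, a tail subunit that receives signals from MAP kinase-activated factors, stood at 52.0, 45.0 and 47.9 CPM in control, 34.3, 45.3 and 49.3 labelled hairpin 1, and 51.4, 56.4 and 50.6 with hairpin 2. Replicate 1 labelled hairpin 1 was the lowest of the 9 libraries, and without it the log2 fold change went from -0.17 to -0.04. Ccnc, the cyclin of the kinase module, stood at 18.4, 24.4 and 22.0 CPM in control, 28.8, 21.1 and 21.5 labelled hairpin 1, and 27.0, 23.8 and 22.3 with hairpin 2. Its log2 fold change of 0.14 (SE 0.17) was -0.04 without the same library. Med31, a middle subunit, stood at 8.53, 9.21 and 11.8 CPM in control, 13.1, 8.48 and 11.0 labelled hairpin 1, and 10.3, 10.2 and 8.96 with hairpin 2. Med20, of the head, stood at 19.5, 18.1 and 21.1 CPM in control, 18.5, 20.4 and 24.5 labelled hairpin 1, and 19.6, 17.4 and 15.4 with hairpin 2. Labelled hairpin 1, the groups overlapped for both, with log2 fold changes of 0.14 (SE 0.21) and 0.11 (SE 0.15). Med31 stood at -0.03 without replicate 1 labelled hairpin 1, and Med20 at -0.01 without replicate 3. For each of these 5 genes edgeR's adjusted p was 1.

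With hairpin 2, the values that led to the choice of the set were those of Med13, which joins the kinase module to the core. Med13 stood at 71.4, 73.0 and 67.0 CPM in control, 69.2, 72.2 and 77.4 labelled hairpin 1, and 106, 117 and 92.5 with hairpin 2. Every hairpin 2 library lay above the other 6. The ratio to control was 1.49, a log2 fold change of 0.58 (SE 0.11), or 0.14 with each library's length and GC trend removed, a fit described further on. Against the libraries labelled hairpin 1 it was 0.53 (SE 0.11). In the comparison the choice did not use, labelled hairpin 1 against control, it was 0.05 (SE 0.11, 95% interval -0.19 to 0.29, edgeR adjusted p = 1).

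Its paralog Med13l stood at 28.8, 23.1 and 24.7 CPM in control, 22.5, 24.0 and 34.2 labelled hairpin 1, and 40.4, 41.0 and 37.4 with hairpin 2. All hairpin 2 values again lay above the other 6, and the log2 fold change of 0.63 (SE 0.17) against control was the highest of the 32 members, and 0.32 with the trend removed. Per kilobase, the ratio of Med13l to Med13 was 0.411 ± 0.049 in control, 0.415 ± 0.074 labelled hairpin 1 and 0.430 ± 0.030 with hairpin 2 (SD, n = 3). The proportion of the 2 paralogs thus lay within the spread between libraries in all groups (exact two-sided permutation p = 0.9 labelled hairpin 1 against control).

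**Figure D1:**
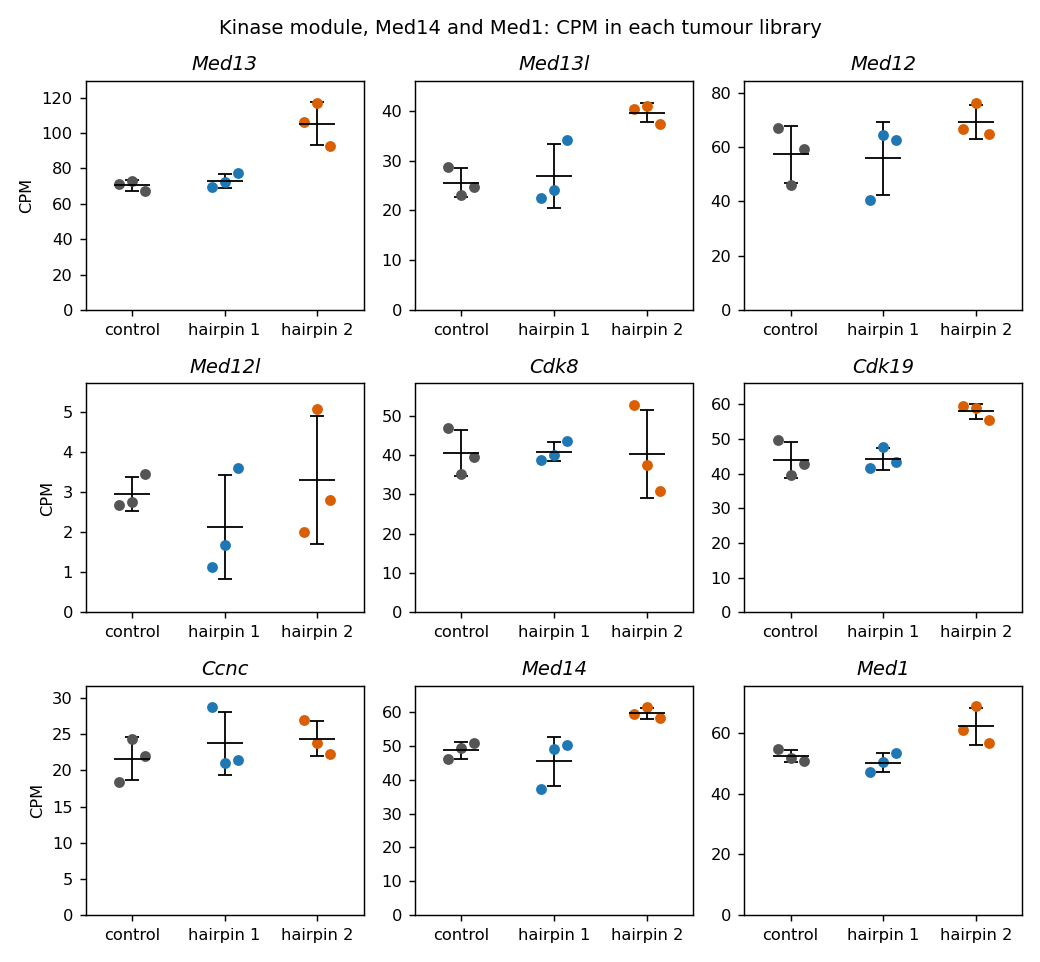
CPM of the 7 kinase module genes, Med14 and Med1 (y axis from 0) in each library by group (x axis): points are libraries, bars the mean and SD of 3. Med13, Med13l, Cdk19, Med14 and Med1 have all 3 hairpin 2 libraries above the other 6, while Cdk8, Ccnc, Med12 and Med12l overlap with control.

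Cdk19, the paralogous kinase of the module, stood at 49.8, 39.7 and 42.8 CPM in control, 41.7, 47.7 and 43.4 labelled hairpin 1, and 59.4, 59.0 and 55.6 with hairpin 2, a log2 fold change of 0.40 (SE 0.12) against control, or 0.15 with the trend removed. Cdk8, which takes the same place in the module, stood at 47.0, 35.3 and 39.4 CPM in control, 38.8, 40.1 and 43.5 labelled hairpin 1, and 52.7, 37.5 and 30.9 with hairpin 2. The hairpin 2 values of Cdk8 spanned those of both other groups, and its log2 fold change was -0.01 (SE 0.19). Per kilobase, the ratio of Cdk19 to Cdk8 was 0.712, 0.754 and 0.728 in control and 0.721, 0.798 and 0.670 labelled hairpin 1 (exact two-sided permutation p = 1), against 0.756, 1.06 and 1.21 with hairpin 2. Replicate 1 of hairpin 2 lay within the range of the other groups, and replicates 2 and 3 lay above it.

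Med12, which activates the module's kinase, stood at 66.8, 46.0 and 59.1 CPM in control, 40.4, 64.4 and 62.7 labelled hairpin 1, and 66.5, 76.2 and 64.8 with hairpin 2. Its log2 fold change of 0.27 (SE 0.19) with hairpin 2 ran from 0.12 without control replicate 2 to 0.40 without control replicate 1, and was 0.04 with the trend removed. Med12l, its paralog, stood at 2.69, 2.74 and 3.45 CPM in control, 1.12, 1.68 and 3.60 labelled hairpin 1, and 2.01, 5.07 and 2.80 with hairpin 2. Its value of 0.15 (SE 0.47) was -0.31 without replicate 2 of hairpin 2 and -0.27 with the trend removed. Ccnc differed by 0.17 (SE 0.17) with hairpin 2, with overlapping groups, and by 0.01 with the trend removed.

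Outside the kinase module, Med14 and Med1 stood higher in each hairpin 2 library than in all others. Med14 stood at 46.1, 49.5 and 50.9 CPM in control, 37.2, 49.1 and 50.3 labelled hairpin 1, and 59.4, 61.6 and 58.4 with hairpin 2. The log2 fold change was 0.29 (SE 0.13), and -0.02 with the length and GC trend removed. Med1, a middle subunit that binds nuclear receptors, stood at 54.6, 51.8 and 50.8 CPM in control, 47.0, 50.4 and 53.2 labelled hairpin 1, and 61.1, 68.8 and 56.7 with hairpin 2. Its log2 fold change of 0.25 (SE 0.11) was 0.16 without replicate 2 of hairpin 2 and -0.10 with the trend removed.

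Over the set, 6 of the 32 members lay entirely above control with hairpin 2, against 10.6% of all entries, and 3 lay entirely below, against 10.2%. The sixth on the higher side was Med18, at 4.36, 2.88 and 3.39 CPM in control against 5.21, 4.95 and 4.39 with hairpin 2. Those below were Med16, Med27 and Med30. None of the 32 passed edgeR's threshold (0% of all entries). At an unadjusted p under 0.05, 5 members were higher, against 8.14% of all entries, and 0 lower, against 6.27%. DESeq2 called 2 higher (Med13 and Med13l), against 1.11% of entries, and 0 lower, against 1.03%. Since the choice used this comparison, nothing is read from these shares. By part, log2 fold changes were above 0 for 6 of 7 kinase module genes (median 0.27), 1 of 7 head genes (median -0.11), 0 of 4 genes placed in the head or upper tail (median -0.18), 1 of 8 tested middle genes (median -0.09) and 2 of 5 tail genes (median -0.04). In all, 11 of the 32 were above 0, against 51.5% of all entries, and the median over the 32 was -0.07, and 0.01 over all entries.

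**Figure D2:**
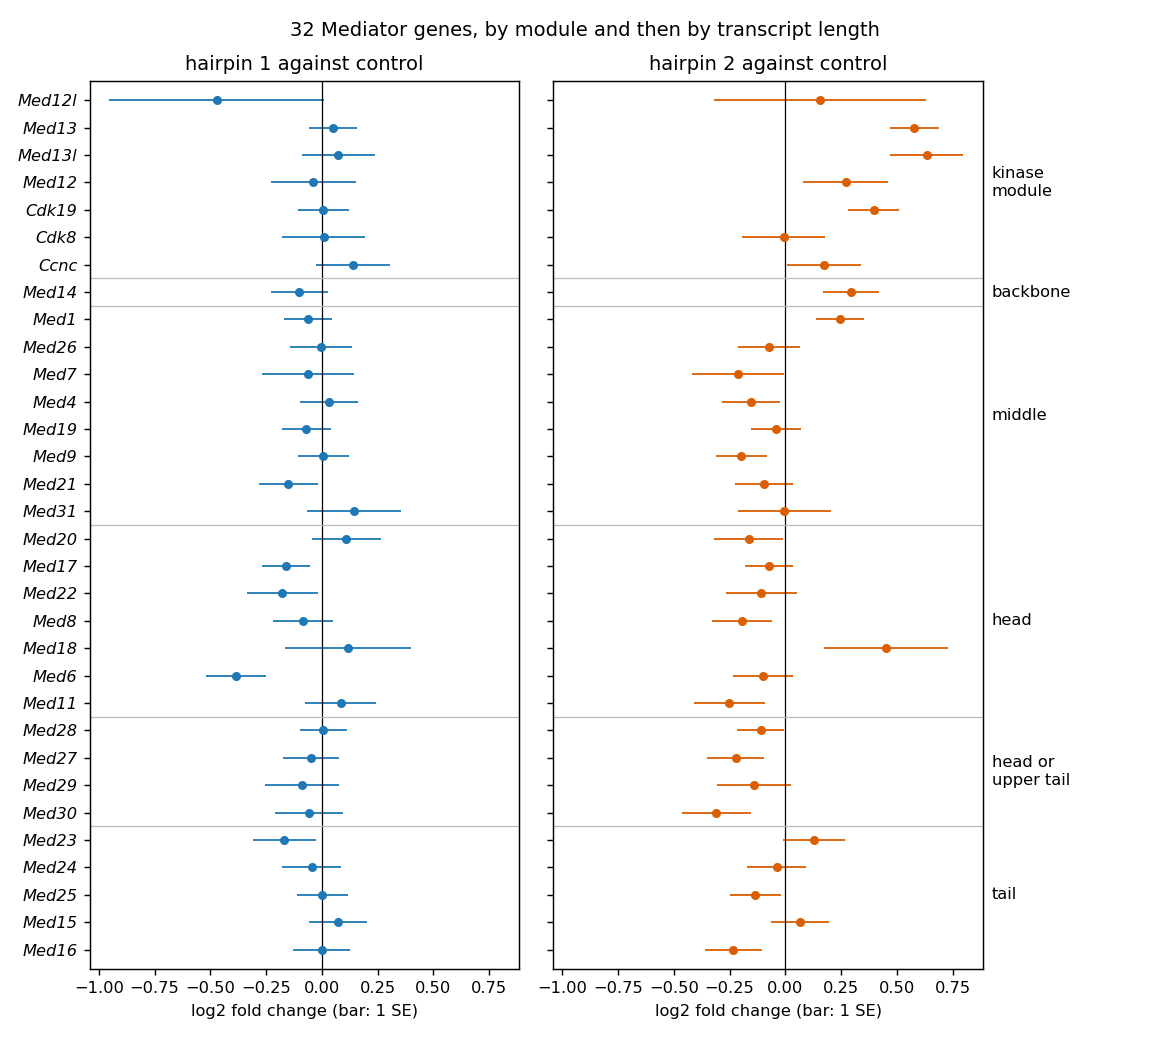
Log2 fold change of the 32 tested members (x axis, points, with bars of 1 SE) against control for the libraries labelled hairpin 1 (left) and for hairpin 2 (right), by part of the complex and, within a part, from the longest transcript to the shortest (y axis). Both panels share the same control libraries. At the left most points lie near 0, and Med12l at -0.47 and Med6 at -0.39 lie furthest from it. At the right Med13l, Med13 and Cdk19 stand at 0.63, 0.58 and 0.40.

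The lowest log2 fold changes with hairpin 2 were those of the core genes Med30, Med11 and Med16. Med30 stood at 31.7, 38.7 and 34.0 CPM in control, 40.9, 30.3 and 29.2 labelled hairpin 1, and 31.2, 26.7 and 26.4 with hairpin 2, and its log2 fold change of -0.31 (SE 0.15) was the lowest of the set. Med16, a tail subunit, stood at 90.5, 87.0 and 91.1 CPM in control, 74.2, 108 and 86.9 labelled hairpin 1, and 76.1, 77.8 and 74.6 with hairpin 2. Its hairpin 2 libraries lay close together and below all controls, at -0.23 (SE 0.13), but overlapped the libraries labelled hairpin 1. Med11, of the head, stood at 12.7, 13.2 and 14.6 CPM in control, 13.5, 15.4 and 14.1 labelled hairpin 1, and 10.4, 10.5 and 13.2 with hairpin 2. The log2 fold change was -0.25 (SE 0.16), and replicate 3 of hairpin 2 was level with control. With the length and GC trend removed, Med30 was at -0.25, Med11 at -0.12 and Med16 at -0.14. In that fit Med20 was the lowest member, at -0.39.

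For several other core subunits the groups overlapped in both comparisons. Med17, the central scaffold of the head, stood at 48.5, 45.9 and 42.2 CPM in control, 38.7, 43.5 and 39.9 labelled hairpin 1, and 40.4, 45.6 and 43.9 with hairpin 2. Med15, a tail subunit that binds activators, stood at 96.6, 80.4 and 73.4 CPM in control, 77.0, 97.9 and 88.2 labelled hairpin 1, and 94.1, 84.9 and 83.1 with hairpin 2. Med24, another tail subunit, stood at 97.9, 74.3 and 80.0 CPM in control, 71.1, 88.2 and 84.9 labelled hairpin 1, and 76.6, 87.5 and 81.3 with hairpin 2. Med26, a middle subunit that recruits elongation factors, stood at 16.8, 15.7 and 15.2 CPM in control, 14.9, 15.4 and 17.3 labelled hairpin 1, and 15.2, 16.4 and 13.7 with hairpin 2. Log2 fold changes with hairpin 2 were -0.07 (SE 0.11) for Med17, 0.07 (SE 0.13) for Med15, -0.04 (SE 0.13) for Med24 and -0.07 (SE 0.14) for Med26.

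Between the hairpins, 8 members lay higher in all hairpin 2 libraries than in all libraries labelled hairpin 1, against 8.31% of all entries, and 2 lay lower, against 7.67%. The 8 were Med13, Med13l, Cdk19, Med14, Med1, Med12, Med23 and Med6, and the 2 were Med4 and Med11. No member passed edgeR's threshold (0% of all entries), 5 were higher at an unadjusted p under 0.05 against 6.43% of entries, and 0 lower against 5.23%. DESeq2 called 1 higher against 0.275% and 0 lower against 0.352%. Log2 differences between the hairpins were above 0 for 16 of 32 members, against 50.2% of all entries. The highest was 0.63 (SE 0.48) for Med12l, a gene of few counts, which was -0.14 without both libraries at the ends of the first component. Among members of at least 5 CPM the upper end was 0.56 (SE 0.17) for Med13l, 0.53 (SE 0.11) for Med13 and 0.39 (SE 0.13) for Med14. The differences were -0.33 (SE 0.16) for Med11, -0.28 (SE 0.15) for Med20 and -0.25 (SE 0.15) for Med30 at the lower end. With the length and GC trend removed these were 0.34 for Med13l, 0.16 for Med13, 0.14 for Med14, -0.15 for Med11, -0.45 for Med20 and -0.15 for Med30. Without replicate 1 labelled hairpin 1, Med30 was -0.08, and without replicate 3 Med20 was -0.15. Without both libraries at the ends of the first component, Med14 was 0.24, and Med12 went from 0.31 to 0.04. In the same fit Med13 went from 0.53 to 0.41, Med1 from 0.31 to 0.18 and Med23 from 0.30 to 0.10. Med30 went from -0.25 to -0.05, Med16 from -0.23 to -0.37 and Ccnc from 0.03 to 0.21. Med24 went from 0.01 to -0.14 and Med22 from 0.07 to -0.11. The median over the 32 was 0.00, as it was over all entries. This comparison shares the hairpin 2 libraries with the choice of the set, so nothing is read from these calls and shares.

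The kinase module took a larger share of all Mediator counts in the hairpin 2 libraries. The share was 19.6%, 17.9% and 18.8% in control, 19.1%, 19.1% and 20.3% labelled hairpin 1, and 24.9%, 24.4% and 22.1% with hairpin 2. With Med13 left out of both sums it was 13.3% to 15.4% in control, 14.4% to 15.7% labelled hairpin 1 and 16.6% to 18.9% with hairpin 2. All hairpin 2 libraries lay above the other 6 by either measure. Leaving Med13 out keeps the libraries that the choice of the set used, so nothing is read from these shares. Summed CPM of the module was 244 to 285 in control, 243 to 286 labelled hairpin 1 and 306 to 359 with hairpin 2. That of all other members was 1116 to 1171, 1029 to 1145 and 1066 to 1112 in the same order. For the other members the hairpin 2 values thus lay within the range labelled hairpin 1. These are shares of counts, which weigh long transcripts more.

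Transcript length moved with the hairpin 2 values. The members that stood above all other libraries were Med13, Med13l, Med1, Med14 and Cdk19, whose longest transcripts of 10546, 9296, 8024, 6963 and 5807 bases rank 2, 3, 4, 5 and 7 among the 32. They are 5 of 32 members, against 4.70% of all entries above the other 6 libraries, and 0 members lay below all 6, against 4.21%. The choice used this contrast, so nothing is read from these shares. Of 17 members at or above 3205 bases, the median of all tested genes, 10 had a log2 fold change above 0 with hairpin 2 (median 0.13). Of 15 shorter members 1 did (median -0.15). Of all entries, not split by length, 51.5% were above 0. The split was made for the members only, so it does not show a trait particular to them. Across the 32 members, which share the same libraries, Pearson's r between log2 length and log2 fold change was 0.65 with hairpin 2 and -0.08 labelled hairpin 1, given as a description. Over all genes with a length, the Pearson values were 0.24 and -0.01. By rank the gap was smaller: Spearman's rho with hairpin 2 was 0.62 across the members and 0.37 over all genes with a length.

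With each library's trend over length and GC content removed, estimated over all tested genes, the log2 fold change with hairpin 2 was 0.14 (SE 0.09) for Med13, 0.32 (SE 0.13) for Med13l and 0.15 (SE 0.11) for Cdk19. For Med14 and Med1, given above, the direction was not kept (SE 0.12 and 0.09). The kinase module median went from 0.27 to 0.04, with 5 of 7 genes above 0, against 6568 of all 14193 entries. Med18 stood at 0.52 (SE 0.30) in this fit and Med20 at -0.39 (SE 0.15).

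**Figure D3:**
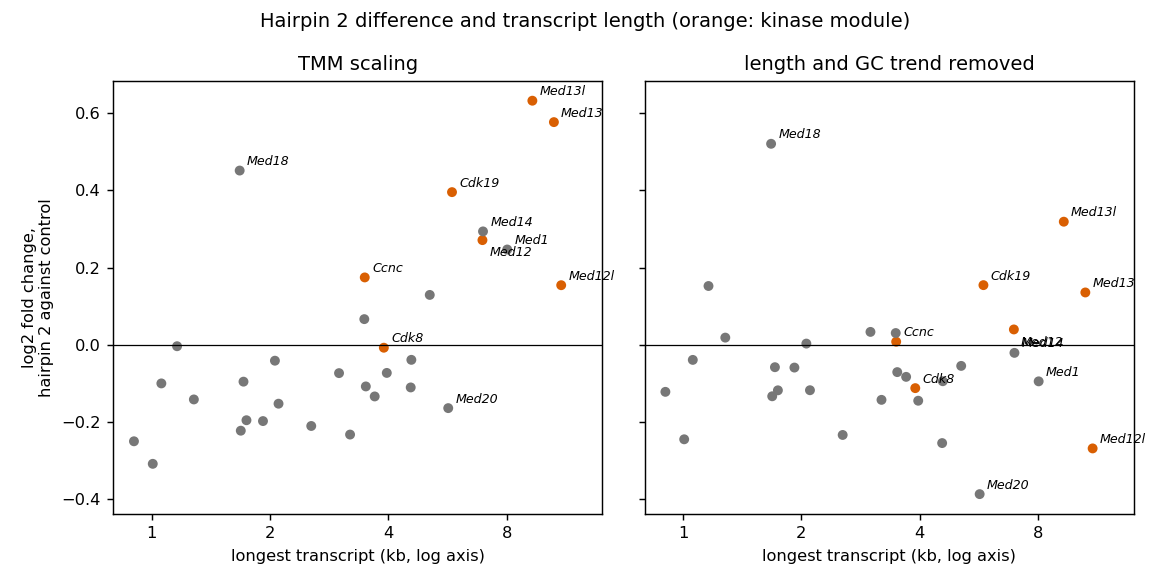
Log2 fold change with hairpin 2 against control (y axis) and length of the longest transcript (x axis, log scale) for the 32 members, with library scaling alone (left) and with each library's length and GC trend removed (right). Orange points are the kinase module: Med13 moves from 0.58 to 0.14 and Med13l from 0.63 to 0.32.

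The relation to length was also taken library by library. Across the 32 members, Pearson's r between log2 length and the deviation of a library from the member's mean was 0.39, 0.70 and 0.31 in the hairpin 2 libraries. It was -0.67, -0.16 and 0.28 in the libraries labelled hairpin 1, and 0.12, -0.44 and -0.41 in control. Because deviations are taken from the mean over the same 9 libraries, positive values in hairpin 2 set negative ones elsewhere on balance, so the opposite sign is no separate result. Replicate 1 labelled hairpin 1, at -0.67, held the lowest value of the 9 libraries for the long members Med12, Med14, Med1 and Med23 and the highest for the short members Med30 and Med31. The kinase module's share of counts went with each library's relation to length over all genes (Spearman's rho of the deviation with length): in 8 of the 9 libraries a higher rho came with a higher share. The exception, replicate 1 labelled hairpin 1, had the most negative rho, -0.31, and a share of 19.1%. The 3 hairpin 2 libraries had both the highest rho values and the highest shares. What sets the length relation in a library was not tested.

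**Figure D4:**
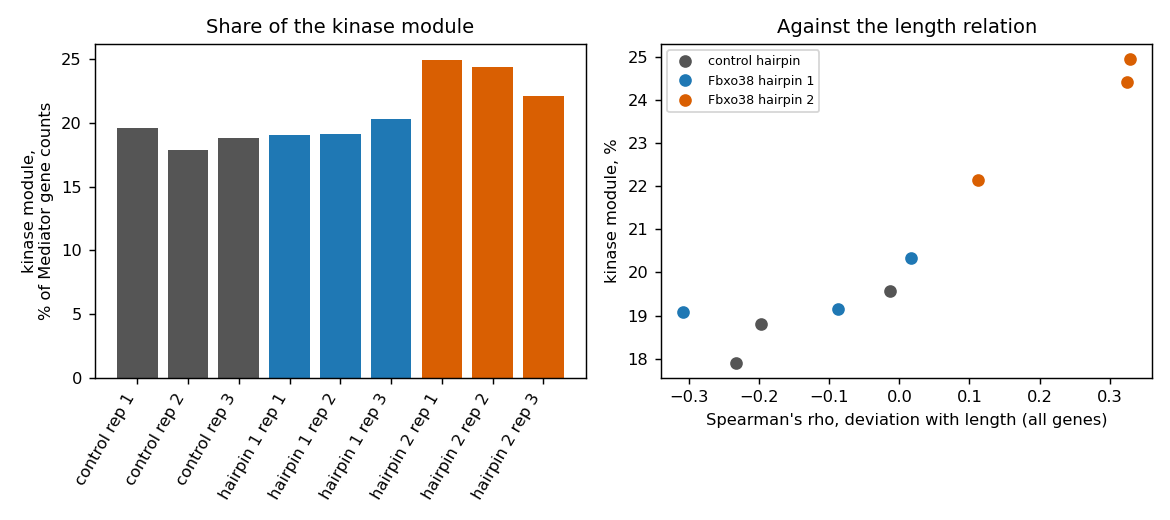
Left, the kinase module's share of all Mediator gene counts (y axis, % from 0) in each library. Right, the same share against Spearman's rho between a library's deviation from the mean and transcript length over all genes (x axis; the y axis does not start at 0): hairpin 2 libraries, at 22.1% to 24.9%, also have the 3 highest rho values, 0.11 to 0.33.

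Other genes of the transcription machinery were counted from fixed lists of 68 genes. In the libraries labelled hairpin 1, 0 of the 67 tested genes passed edgeR's threshold (0% of all entries). At an unadjusted p under 0.05, 0 were higher, against 1.85% of all entries, and 0 lower, against 1.32%. The medians were 0.02 for 13 RNA polymerase II subunits, -0.05 for 30 tested general transcription factors, 0.01 for 17 elongation factors and -0.05 for 7 cohesin and cohesin loader genes. With hairpin 2, log2 fold changes were above 0 for 2 of 13 polymerase subunits (median -0.19), 13 of 30 general factors (median -0.04), 7 of 17 elongation factors (median -0.03) and 7 of 7 cohesin genes (median 0.24). With the length and GC trend removed, these medians were -0.11, -0.02, 0.00 and 0.01, with 2, 14, 9 and 4 genes above 0. Over all entries, 51.5% were above 0 with hairpin 2, and 6568 of 14193 with the trend removed.

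Among these genes, Nipbl, the cohesin loader that acts together with Mediator, stood at 31.6, 27.3 and 27.7 CPM in control, 26.8, 28.5 and 35.0 labelled hairpin 1, and 47.7, 40.3 and 27.7 with hairpin 2, where replicate 3 was level with control. Aff4, the scaffold of the super elongation complex, stood at 164, 154 and 146 CPM in control, 133, 170.3 and 189 labelled hairpin 1, and 207, 276 and 256 with hairpin 2, all 3 above the other 6 libraries. Polr2e, a small subunit shared by the RNA polymerases, stood at 109, 104 and 107 CPM in control, 113, 103 and 109 labelled hairpin 1, and 90.1, 74.8 and 91.1 with hairpin 2, all 3 below the other 6. Their log2 fold changes with hairpin 2 were 0.42 (SE 0.19), 0.67 (SE 0.15) and -0.32 (SE 0.10), and their longest transcripts measure 9423, 10099 and 2403 bases. Among other long genes of these lists, some stood higher and some did not. Aff1 (8323 bases) was at 0.44 (SE 0.16), Ccnt2 (7640 bases) at 0.41 (SE 0.15) and Taf1 (8054 bases) at 0.37 (SE 0.11). Tbp (12794 bases) was at 0.06 (SE 0.13), Polr2a (6740 bases) at 0.03 (SE 0.11) and Gtf2a1 (6064 bases) at -0.22 (SE 0.22). These genes were picked with their values known, and a longest transcript need not be the one that is made.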

How the data were processed

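TRIzol-extracted tumour RNA was sequenced as 9 libraries on an Illumina NovaSeq, per the labels' protocols. The authors deposited raw counts per gene symbol. STAR 2.7.0d, Cufflinks and the builds GRCh38 and hg38, which are human, appear in the submitters' processing notes, while the symbols are mouse. Which program counted reads, on which annotation and strand setting, is not given in the sources used here. No member symbol stood on several rows.

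The main test was edgeR's (4.0.16, under R 4.3.3): filterByExpr with a minimum count of 10 and minimum total of 15, TMM scaling, and glmQLFit with robust estimates on the 9 libraries together (Benjamini-Hochberg adjustment, threshold 0.05). CPM uses TMM-scaled library sizes. Positions, lengths and GC content come from GENCODE M21 (GRCm38). Alternatives were other scalings and filters, DESeq2 1.42.0, limma-voom (limma 3.58.1), a replicate block, fits restricted to the groups of a comparison, a length and GC trend removed by splines with 5 degrees of freedom, and leaving out libraries. The edgeR steps and the trend removal were tested on simulated counts. Chi-square over degrees of freedom between libraries of a group was 20.8 to 73.4, so none was merged. The lowest value of all pairs, 10.7, was between groups, for control replicate 1 and replicate 3 labelled hairpin 1.

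The members, lists and named genes were chosen with earlier results of these data known. Named were the kinase module, Med14, Med1, Med15, Med17, Med23, Med24 and Med26 by role, and in each comparison the 3 highest and 3 lowest log2 fold changes among members of at least 5 CPM. The others named were chosen after their values were seen.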

Additional observations from a re-analysis of the deposited data

How the results depend on the processing

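DESeq2 called 303 entries with hairpin 2 against control, 2 of them members, and 89 between the hairpins, 1 of them a member (Med13). The choice of the members used hairpin 2, so nothing is read from these calls of members. Without a filter on low counts edgeR called 4 and 2 entries in these comparisons. Leaving out 1 library gave 0 to 2 entries with hairpin 2 and 0 to 1 between the hairpins (2 and 1 without replicate 1 of hairpin 2), and 0 members in either. The threshold was passed by 0 entries in the libraries labelled hairpin 1 under all alternatives run. The median over members ran from -0.06 to 0.01 labelled hairpin 1, from -0.11 to -0.05 with hairpin 2 and from -0.05 to 0.02 between the hairpins when single libraries were left out. For Med13 with hairpin 2 that range was 0.49 to 0.66, and for Med13l 0.55 to 0.73.

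Of 420 repeats of named members' values with hairpin 2, 19 moved by more than the SE, as did 38 of 420 between the hairpins. Removal of the length and GC trend, with or without the block, accounted for 20 each of these, and leaving out replicate 1 labelled hairpin 1 and replicate 2 of hairpin 2 together, the libraries at the ends of the first component, for 11. Without both, Med13 with hairpin 2 was 0.48. Without a filter on low counts, 10 of 33 members were above 0 labelled hairpin 1, where the median over all entries was 0.02. Same-numbered libraries had correlations of deviations from -0.41 to 0.14, over 0.1 in 2 of 9 pairs, and 0 of 9 libraries correlated best with its own number. No pairing was therefore assumed in the main fit, though with 3 libraries in a group this cannot exclude a shared batch. With the replicate block edgeR called 0 entries and 0 members in each comparison, and the medians were -0.03, -0.07 and 0.00. Med12l (19 to 85 counts) and Med18 (44 to 83 counts) are limited by depth.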
